A study of Mus musculus with 12 samples.

Results

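Named genes that sense microbial products and carry out inflammasome signalling and pyroptosis were followed in the gut epithelial cells of mice with 1 disrupted copy of Chd8. These were 5 genes for sensors of the NOD-like receptor family or their partners (Nlrp6, Nlrc4, Naip2, Naip5 and Naip6), the DNA sensor Aim2, the protease Casp1, the adaptor Pycard, and the gasdermins Gsdmd and Gsdmc2. They were chosen by name for their known roles, with earlier results of these data known. All 10 were found among the 14244 gene rows of the table. Gut epithelial cells had been taken from 5 wild-type (WT) and 7 Chd8L+/- mice, and poly(A) RNA of each mouse had been sequenced as a separate library. All mice were male littermates on the C57BL/6 background and 8 weeks old. Chd8L+/- mice carry, in every cell of the body, 1 Chd8 allele that lacks exons of the large isoform of this chromatin remodeller, so the epithelium is not the only tissue affected. Cells were freed from intestinal sections with hypochlorite, a chelator, a reducing agent and agitation, and the segment of gut behind each library is not given in the sources used here.

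An inflammasome is a protein platform that assembles in the cytosol when a sensor meets a microbial or damage signal. NAIP proteins bind bacterial flagellin or secretion-system proteins and recruit NLRC4, AIM2 binds double-stranded DNA, and ASC, the product of Pycard, joins sensors to caspase-1. Caspase-1 matures interleukin-1 beta and interleukin-18 and cuts gasdermin D, whose amino-terminal part forms pores in the plasma membrane. In the gut lining the NAIP and NLRC4 proteins are known for the expulsion of infected enterocytes, and gasdermin C genes are known to be induced in the epithelium during type 2 immunity.

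The libraries held 15691662 to 20761315 reads on genes, and values are given as normalized counts, that is, reads divided by the size factor of the library. Differences between genotypes were fitted with limma on log2(normalized count + 1) for the 12808 genes with a mean of at least 10, with Benjamini-Hochberg adjustment over all of them. The defining epithelial markers, among them Epcam, Cdh1 and Vil1, were detected in every library, and their summed normalized count was 172262 to 304954 in WT and 165925 to 293539 in Chd8L+/- libraries. The normalized count of Chd8 itself averaged 953 ± 85.5 over the 5 WT and 1297 ± 123 over the 7 Chd8L+/- libraries (± SD here and throughout), and the groups did not overlap (p = 0.00126 by a two-sided exact permutation test, which cannot give less here; limma, adjusted p = 0.121). This count covers the whole gene and cannot separate the deleted exons from the rest, so it does not check the labels, and the genotype of each library rests on its label. On the first principal component, which held 39.7% of the variance, WT replicate 2 had a score of 41.0, while the other WT libraries lay between -67.5 and -26.2 and the Chd8L+/- libraries between 0.260 and 42.7. Results are therefore given with and without that library. It was singled out by its likeness to the Chd8L+/- libraries, so leaving it out favours larger differences between genotypes. Adjusted p-values without it are thus a description and no support for a difference.

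All 10 genes were measured in all 12 libraries, with 49 to 214 reads per library for Aim2 and at least 597 for each of the others. Of the 10, 7 had a higher and 3 a lower mean log2 value in Chd8L+/- libraries. None passed an adjusted p of 0.05 in limma, which 0.0234% of all tested genes did, and 2 of 10, Nlrp6 and Pycard, had an unadjusted p of 0.05 or less, a share reached by 24.3% of all genes. On the recovered reads, edgeR called 0 of the 10 and 0.039% of all genes, and DESeq2 called 0 of the 10 and 5.69% of all genes. The median log2 fold change of the 10 genes was 0.14, beside 0.014 for all genes tested. In none of the 10 did the genotypes fail to overlap, which 0.515% of all genes did. Without WT replicate 2, 3 of the 10 genes (Nlrp6 and Pycard, higher, and Gsdmd, lower) passed the adjusted threshold, and so did 27.6% of all genes.

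**Figure D1:**
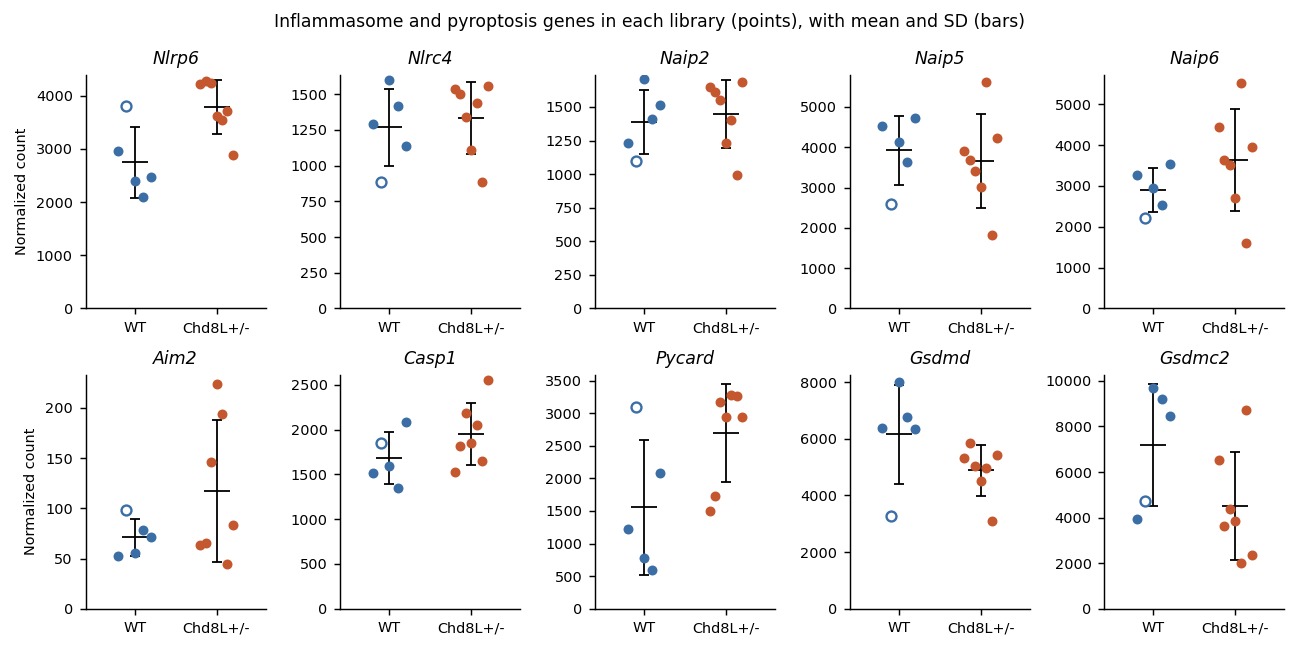
Normalized count of each of the 10 genes (vertical axes, each from 0) in every library, with WT in blue and Chd8L+/- in orange, mean and SD as bars, and WT replicate 2 as an open circle. All 7 Chd8L+/- libraries lie above the WT median for Nlrp6 and Pycard and below it for Gsdmd, and WT replicate 2 is the highest WT library for the first pair and the lowest for Gsdmd.

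Levels between genes were compared per kilobase of exon. In WT libraries Gsdmc2 and Gsdmd, the pore-forming genes, stood highest, with 3108 ± 1157 and 2591 ± 737 normalized counts per kb (SD, n = 5), and these neighbours differed by less than their spread. Casp1 followed with 1124 ± 194 and Naip5 with 754 ± 163 normalized counts per kb. Nlrp6 (541 ± 132), Naip6 (424 ± 79.2) and Pycard (409 ± 272) came next, and each differed from its neighbour by less than the larger of their SDs. Naip2 (287 ± 49.1) and Nlrc4 (264 ± 56.6) lay below Pycard and close together, by less than the same SDs, and Aim2 was lowest with 20.3 ± 5.33 normalized counts per kb. In Chd8L+/- libraries Gsdmd (2058 ± 379, SD, n = 7) and Gsdmc2 (1945 ± 1029) again stood highest and Aim2 (33.5 ± 20.2) lowest, while Pycard reached 708 ± 197 and Nlrp6 745 ± 99.4 normalized counts per kb, beside 704 ± 223 for Naip5. The sensors and the adaptor thus lay below both gasdermins and Casp1 in both genotypes.

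Nlrp6 encodes a sensor of the intestinal epithelium that is known for its part in mucus secretion and in the response to microbial metabolites. It lies at chr7:140920902-140929192 on the plus strand (GRCm38, the build that mm10 names). Its normalized counts were 2969, 3808, 2396, 2101 and 2474 in WT replicates 1 to 5. In the 7 Chd8L+/- libraries the lowest value was 2886, the median 3705 and the highest 4278. Every Chd8L+/- library lay above the WT median and 3 lay above every WT library, and the groups overlapped through WT replicates 1 and 2. The mean was 2749 ± 669 in WT and 3784 ± 505 in Chd8L+/- libraries (SD), a log2 fold change of 0.48 ± 0.15 (SE) that did not pass the adjusted threshold (limma, adjusted p = 0.124; two-sided exact permutation test for this gene alone, p = 0.0177). Without WT replicate 2 the log2 fold change was 0.61 (limma, adjusted p = 0.00742). Library names open with a letter of unstated meaning, and 3 letters, A, B and C, hold both genotypes. Letter A holds 2 WT and 2 Chd8L+/- libraries, letter B 2 and 1, and letter C 1 and 3. A difference within a letter thus rests on few libraries, for this gene and those below. Within letters A, B and C the log2 difference was 0.22, 0.64 and 0.76.

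NAIP proteins are the ligand-binding partners of NLRC4: NAIP5 and NAIP6 bind flagellin and NAIP2 binds the inner rod of bacterial secretion systems. Their genes lie side by side on the minus strand of chromosome 13, with Naip2 at chr13:100144063-100202092, Naip5 at chr13:100211739-100246323 and Naip6 at chr13:100281121-100317674. Proteins translated from the annotated coding sequences of Naip5 and Naip6 have 1403 residues each and are identical at 94.7% of them, and the coding sequences differ at 128 of 4209 bases. The stretch of 75 bases, the read length, that differs most between the pair is shown here because a read from it tells these apart. It was chosen on this pair alone, without the other genes of the family. Capitals mark the 11 bases that differ, in coding bases 52 to 126. The stretches lie at chr13:100246074-100246148 and chr13:100316426-100316500, both written 5′ to 3′ on the minus strand.
Naip5: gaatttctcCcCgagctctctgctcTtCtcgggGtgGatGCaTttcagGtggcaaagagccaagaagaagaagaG
Naip6: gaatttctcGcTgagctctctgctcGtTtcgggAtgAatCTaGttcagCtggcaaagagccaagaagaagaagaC
By contrast, 13.8% of the windows of 75 coding bases are the same in both genes. Over the whole annotated protein-coding transcripts, 23.8% of the 75-base stretches of Naip5, 11.97% of Naip6 and 10.7% of Naip2 also occur in another gene of the family. How the authors' counting treated reads that fit several places is not stated, so the single NAIP values are uncertain to that extent.

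Naip5 had normalized counts of 4530, 2599, 4124, 3639 and 4721 in WT replicates 1 to 5. The Chd8L+/- libraries ran from 1819 through a median of 3677 to 5613. Replicate 6 of Chd8L+/- was the lowest and replicate 5 the highest of all 12 libraries, so the WT range lay inside the Chd8L+/- range (log2 fold change -0.14 ± 0.24 SE; limma, adjusted p = 0.745). Naip6 had normalized counts of 3262, 2205, 2948, 2529 and 3545 in WT replicates 1 to 5. The Chd8L+/- libraries ran from 1594 through a median of 3633 to 5530, with the same 2 libraries at the ends. Of these, 4 lay above every WT library and 1 below every WT library (log2 fold change 0.26 ± 0.25 SE; limma, adjusted p = 0.545). Without Chd8L+/- replicate 5 it was 0.14, without WT replicate 2 it was 0.16, and without Chd8L+/- replicate 6 it was 0.44 (two-sided exact permutation test, p = 0.0498; limma, adjusted p = 0.190). Naip2 had normalized counts of 1231, 1097, 1706, 1409 and 1512 in WT replicates 1 to 5 and ran from 995 through a median of 1553 to 1683 in Chd8L+/- libraries. The groups covered almost the same range (log2 fold change 0.051 ± 0.15 SE; limma, adjusted p = 0.859).

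The summed normalized counts of Naip1, Naip2, Naip5 and Naip6, a total that does not depend on how reads were divided among these 4 copies, were 10181 ± 1629 in WT and 10739 ± 3141 in Chd8L+/- libraries (SD, n = 5 and 7). The total still depends on whether reads that fit several places were kept. It also depends on reads that fit Naip3, which shares 75-base stretches with each of the 4 and is outside the sum. The log2 difference was 0.034 (two-sided exact permutation test, p = 0.915). Chd8L+/- replicate 6 had the lowest total, 5599, and replicate 5 the highest, 15855, and no difference between genotypes was detected against this spread. Naip5 and Naip6 moved together from library to library: after the mean of each genotype was removed from the log2 values, Pearson's r was 0.97 over the 12 libraries, and each was the gene of the table whose pattern was most like that of the other. These points share libraries, reads and near-identical sequence, so r is a description only.

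The ratio of Naip5 to Naip6 within a library separated the genotypes. It was 1.39, 1.18, 1.40, 1.44 and 1.33 in WT replicates 1 to 5. In Chd8L+/- libraries the lowest ratio was 0.875, the median 1.01 and the highest 1.14. Every WT library lay above every Chd8L+/- library, WT replicate 2 nearest to them, and the mean was 1.35 ± 0.102 in WT and 1.03 ± 0.0887 in Chd8L+/- libraries (SD), a log2 difference of -0.39. The same order within each of the 3 opening letters that hold both genotypes follows from this and adds no support. The Naip5 to Naip6 ratio was the only 1 of the 45 ratios between 2 of the 10 genes without overlap. In 0.749% of all ratios between 2 tested genes the groups did not overlap. The ratio was picked out after its values had been seen and has no test; the part of reads that fit both genes in it was not tested.

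**Figure D2:**
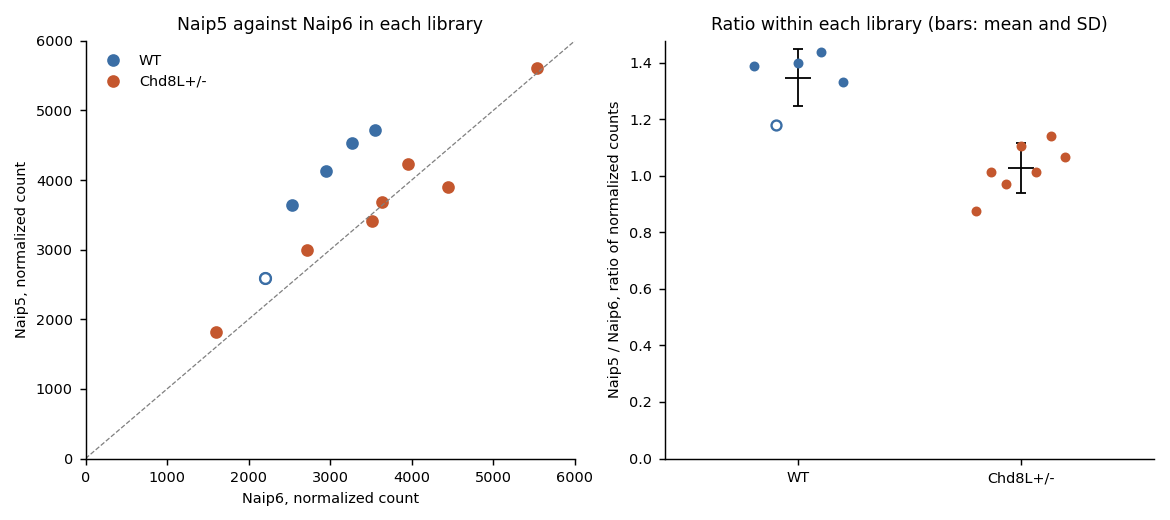
Left, the normalized count of Naip5 (vertical axis) against that of Naip6 (horizontal axis) in each library, with a dashed line where they are equal. Right, the ratio of the pair by genotype, with mean and SD as bars and WT replicate 2 as an open circle; the WT libraries lie between 1.18 and 1.44 and the Chd8L+/- libraries between 0.875 and 1.14.

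Nlrc4 encodes the platform that NAIP proteins recruit, and it lies at chr17:74425438-74459142 on the minus strand. Its normalized counts were 1294, 889, 1602, 1416 and 1135 in WT replicates 1 to 5. The Chd8L+/- libraries ran from 883 through a median of 1435 to 1555. WT replicate 2 and Chd8L+/- replicate 6 were the lowest of their genotypes and nearly equal, and the groups overlapped over almost their whole range (log2 fold change 0.080 ± 0.17 SE; limma, adjusted p = 0.801). The sign depended on WT replicate 2, since the log2 fold change was -0.041 without that library (limma, adjusted p = 0.873).

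Aim2 encodes a sensor of cytosolic DNA. The gene is annotated at chr1:173350879-173466040 on the plus strand. Its normalized counts were 52.4, 98.4, 55.5, 78.3 and 71.5 in WT replicates 1 to 5. The Chd8L+/- libraries ran from 44.6 through a median of 83.2 to 224. Replicates 3, 4 and 5 of Chd8L+/- lay above every WT library, at 147, 224 and 194, while the other 4 fell inside or below the WT range (log2 fold change 0.52 ± 0.38 SE; limma, adjusted p = 0.399; two-sided exact permutation test, p = 0.244). Within letters A, B and C the log2 difference was 1.32, 1.36 and 0.045. The log2 fold change was 0.94 with the letter as a block (limma, adjusted p = 0.0738) and 1.02 when WT replicate 2 was left out too (limma, adjusted p = 0.0366), and it was 0.33 without Chd8L+/- replicate 4. The coefficient of variation was 60.3% in Chd8L+/- and 26.2% in WT libraries. With 49 to 214 reads per library, Aim2 is the gene of the 10 with the largest relative counting error.

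Pycard encodes ASC, the adaptor between sensors and caspase-1, and lies at chr7:127989708-127993867 on the minus strand. Its normalized counts were 1223, 3090, 780, 592 and 2079 in WT replicates 1 to 5. In Chd8L+/- libraries the lowest value was 1498, the median 2946 and the highest 3279. Replicates 3, 5 and 6 of Chd8L+/- lay above every WT library, replicates 4 and 7 lay above every WT library but replicate 2, and replicates 1 and 2 lay between WT replicates 1 and 5. The mean was 1553 ± 1033 in WT and 2691 ± 750 in Chd8L+/- libraries (SD), which gave the largest log2 fold change of the 10 genes, 0.995 ± 0.36 (SE). All 7 Chd8L+/- libraries lay above the WT median, and the difference did not pass the adjusted threshold (limma, adjusted p = 0.138; two-sided exact permutation test for this gene alone, p = 0.0379). That exact permutation p lay above 0.05 for 8 of the 12 libraries left out in turn, at most 0.109 without WT replicate 3 or 4, with a log2 fold change of 0.71 without WT replicate 4. Without WT replicate 2 the log2 fold change was 1.31 (limma, adjusted p = 0.0114), and within letters A, B and C the log2 difference was 0.65, 1.56 and 1.38. An unclassified transcript, Gm45205, overlaps exons of Pycard on the opposite strand, and as the use of strand in the counting is not stated, reads of this transcript cannot be told apart from those of Pycard.

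Markers of dividing cells and of myeloid cells had higher means in the same genotype as Pycard. All 8 dividing cell markers had a higher mean log2 value in Chd8L+/- libraries, 7 with an unadjusted p of 0.05 or less and none past the adjusted threshold. Their summed normalized count was 2663 to 11148 in WT libraries, with replicate 2 at the top, and 6960 to 11907 in Chd8L+/- libraries. The 2 WT libraries with the lowest sums, replicates 3 and 4, also had the lowest Pycard values. Other libraries did not keep this order. WT replicate 5 had a lower sum than WT replicate 1 (4779 against 5807) and a higher Pycard value (2079 against 1223). Among Chd8L+/- libraries, replicate 7 had the lowest sum and replicate 1 the lowest Pycard value. All 12 myeloid markers were higher too, 3 of them with an unadjusted p of 0.05 or less, and their sum was 1331 to 3508 in WT, replicate 2 again at the top, and 1989 to 4222 in Chd8L+/- libraries; no myeloid marker was at 0 in any library. The part of either cell type in the values of Nlrp6, Aim2, Casp1 and Pycard was not tested. In bulk RNA, fewer cells of a type and less RNA per cell cannot be told apart.

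Casp1 encodes the protease at the centre of the pathway and lies at chr9:5298517-5307265 on the plus strand. Its normalized counts were 1521, 1855, 1592, 1354 and 2089 in WT replicates 1 to 5. The Chd8L+/- libraries ran from 1524 through a median of 1846 to 2553. Of the 7 libraries, 6 lay above the WT median and 2 above every WT library, and the difference was within the spread (log2 fold change 0.21 ± 0.15 SE; limma, adjusted p = 0.379; two-sided exact permutation test, p = 0.176). Casp1 varied little within a genotype, with a coefficient of variation of 17.3% in WT and 17.9% in Chd8L+/- libraries, beside 66.5% and 27.9% for Pycard.

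**Figure D3:**
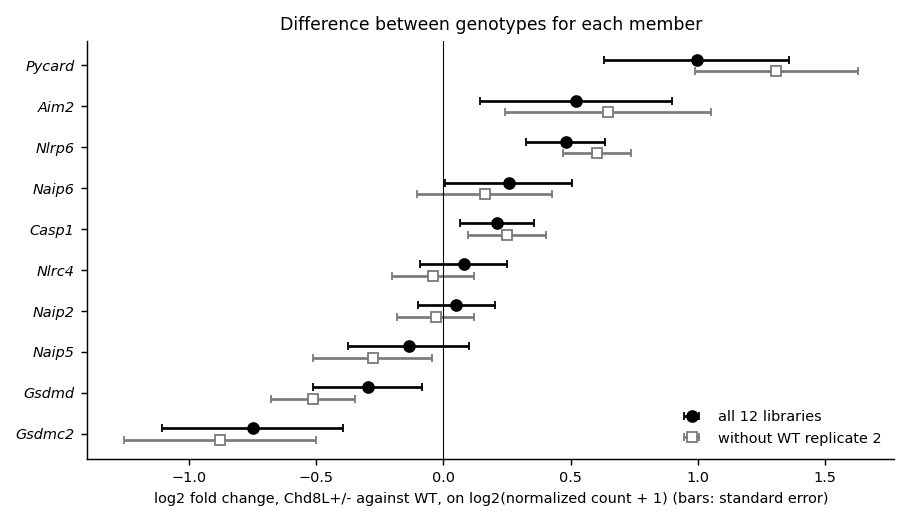
The log2 fold change of Chd8L+/- against WT on log2(normalized count + 1), with its standard error, for each of the 10 genes with all libraries (filled circles) and without WT replicate 2 (open squares). Pycard moves from 0.995 to 1.31, Nlrp6 from 0.48 to 0.61 and Gsdmd from -0.30 to -0.51, while Nlrc4 and Naip2 stay near 0 and change sign.

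Gsdmd encodes gasdermin D, the pore-forming substrate of caspase-1, and lies at chr15:75862327-75867408 on the plus strand. Its normalized counts were 6386, 3263, 8011, 6782 and 6351 in WT replicates 1 to 5. In Chd8L+/- libraries the lowest value was 3085, the median 5043 and the highest 5859. All 7 lay below the WT median, and below the 4 WT libraries other than replicate 2, which alone made the groups overlap. The mean was 6158 ± 1753 in WT and 4892 ± 901 in Chd8L+/- libraries (SD), and the log2 fold change of -0.30 ± 0.21 (SE) did not pass the threshold (limma, adjusted p = 0.398; two-sided exact permutation test, p = 0.230). Without WT replicate 2 it was -0.51 (limma, adjusted p = 0.0346; two-sided exact permutation test, p = 0.00606), and with the library letter as a block as well it was -0.55 and did not pass (limma, adjusted p = 0.0647). Without WT replicate 3 it was -0.19, and without Chd8L+/- replicate 6 also -0.19. Within letters A, B and C the log2 difference was 0.063, -0.40 and -0.80. The positive sign in letter A rested on WT replicate 2. WT replicate 1, the other WT library of that letter, lay above both of its Chd8L+/- libraries (6386 against 5043 and 4507). After quantile normalization of all 12 libraries it was -0.044 (limma, adjusted p = 0.890).

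The 9 enterocyte markers, genes of absorptive cells such as Alpi and Sis, had a summed normalized count of 364442 to 813058 in WT and 299934 to 690916 in Chd8L+/- libraries, and 8 of the 9 had a lower mean log2 value in the latter. The lowest sum of each genotype belonged to WT replicate 2 and Chd8L+/- replicate 6, the same libraries in which Gsdmd was lowest. Nlrc4, Naip2, Naip5 and Naip6 were also lowest in Chd8L+/- replicate 6, and among WT libraries in replicate 2. After the genotype means were removed, Gsdmd had an r of 0.92 with Nlrc4, 0.86 with Naip2 and -0.71 with Pycard over the 12 libraries, as a description of points that share libraries. The part of enterocyte content in these values was not tested.

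**Figure D4:**
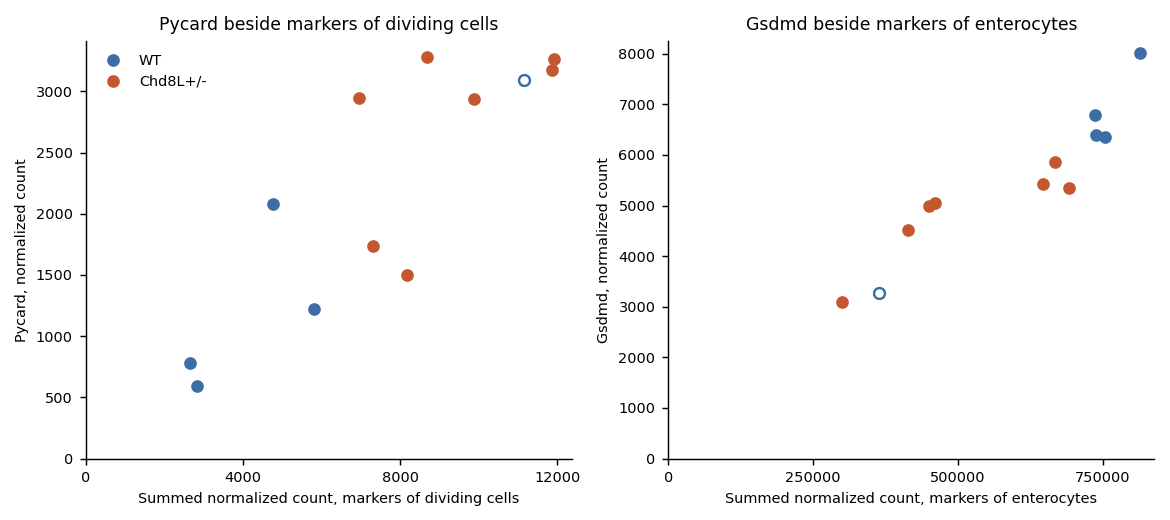
Left, the normalized count of Pycard against the summed normalized count of 8 markers of dividing cells; right, that of Gsdmd against the summed count of 9 enterocyte markers. Each point is a library, WT in blue and Chd8L+/- in orange, with WT replicate 2 as an open circle that lies among the Chd8L+/- libraries in both panels.

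Gsdmc2 belongs to the gasdermin C genes, whose products also form membrane pores and which lie side by side on chromosome 15, with Gsdmc2 at chr15:63824346-63845177 on the minus strand. Its translated protein has 480 residues, and of the residues that could be aligned 95.2% are identical in Gsdmc3, 88.9% in Gsdmc4 and 34.1% in Gsdmd. The coding sequences of Gsdmc2 and Gsdmc3 differ at 42 of 1440 bases. The 75 coding bases that differ most, at chr15:63826857-63826931 and chr15:63860287-63860361, again on the minus strand, are given to show how few bases tell the copies apart, with the 11 differing bases in capitals.
Gsdmc2: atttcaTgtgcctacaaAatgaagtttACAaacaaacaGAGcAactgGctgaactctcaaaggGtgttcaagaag
Gsdmc3: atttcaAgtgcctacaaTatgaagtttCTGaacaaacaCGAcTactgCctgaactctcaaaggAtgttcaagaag
Of all 75-base stretches in the protein-coding transcripts of Gsdmc2, 39.3% also occur in another gasdermin C gene. This is the highest share among the 10 genes, so its single value is uncertain to that extent.

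Gsdmc2 had normalized counts of 3919, 4714, 9673, 9221 and 8450 in WT replicates 1 to 5. The Chd8L+/- libraries ran from 2014 through a median of 3873 to 8743. Of the 7, 6 lay below the WT median and 4 below every WT library, while replicate 6 reached the level of the upper WT libraries. The mean was 7196 ± 2679 in WT and 4504 ± 2383 in Chd8L+/- libraries (SD), a log2 fold change of -0.75 ± 0.36 (SE) that did not pass the threshold (limma, adjusted p = 0.212; two-sided exact permutation test, p = 0.0934). Within letters A, B and C the log2 difference was -0.064, -2.13 and -0.71. The value of letter B rests on 1 Chd8L+/- library, replicate 5, the lowest of all libraries at 2014. With 1 library left out the two-sided exact permutation p ran from 0.0368, without Chd8L+/- replicate 6, to 0.194, without WT replicate 3, and besides the former only leaving out WT replicate 1 took it below 0.05, to 0.0485.

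The whole gasdermin C cluster followed the same libraries. Gsdmc, Gsdmc3 and Gsdmc4 had log2 fold changes of -0.90, -0.76 and -0.80, none past the adjusted threshold. The summed normalized count of the 4 genes was 21869 ± 7915 in WT and 13947 ± 8382 in Chd8L+/- libraries (SD), a log2 difference of -0.78 (two-sided exact permutation test, p = 0.107). WT replicates 1 and 2, at 12341 and 14314, lay below WT replicates 3 to 5, at 25665 to 28689, and the sum ran from 5130 to 28899 in Chd8L+/- libraries. The genes whose patterns were most like that of Gsdmc2 were Gsdmc, Gsdmc3 and Gsdmc4, with r of 0.99, 0.98 and 0.97 over the 12 libraries after the genotype means were removed. Gsdmd did not follow them, with an r of -0.04 to Gsdmc2.

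Tuft cells are chemosensory cells of the epithelium. All 8 of their markers, Dclk1 and Trpm5 among them, had a lower mean log2 value in Chd8L+/- libraries, each with an unadjusted p of 0.05 or less and none past the adjusted threshold. Il25 was the only tuft cell marker at 0 in a library. The sum of the 8 was 2474 to 22905 in WT, with replicate 2 lowest, and 1411 to 9999 in Chd8L+/- libraries, with replicate 6 highest. Chd8L+/- replicate 6 was also highest for the gasdermin C sum. In WT libraries both sums were lower in replicates 1 and 2 than in replicates 3 to 5. The lowest library was not the same. Replicate 2 had the lowest tuft cell sum, while replicate 1 had a tuft cell sum of 10464 and the lowest gasdermin C sum, 12341. Markers of the proximal small intestine summed to 70036 to 190402 in WT and 51380 to 108150 in Chd8L+/- libraries, a sum made up mostly of Slc5a1 and Rbp2 reads. Markers of the distal small intestine summed to 18099 to 43890, with a median of 29445, in WT libraries. In Chd8L+/- libraries they summed to 8664 to 71550, with a median of 41170 and replicate 6 lowest. The median of the sum was higher in Chd8L+/- libraries, yet only 1 of the 5 distal markers had a higher mean log2 value there and 4 had a lower one. Colon markers summed to 4378 to 20255 in WT and 4209 to 25794 in Chd8L+/- libraries. The part of tuft cell content and of gut segment in the gasdermin C values was not tested.

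**Figure D5:**
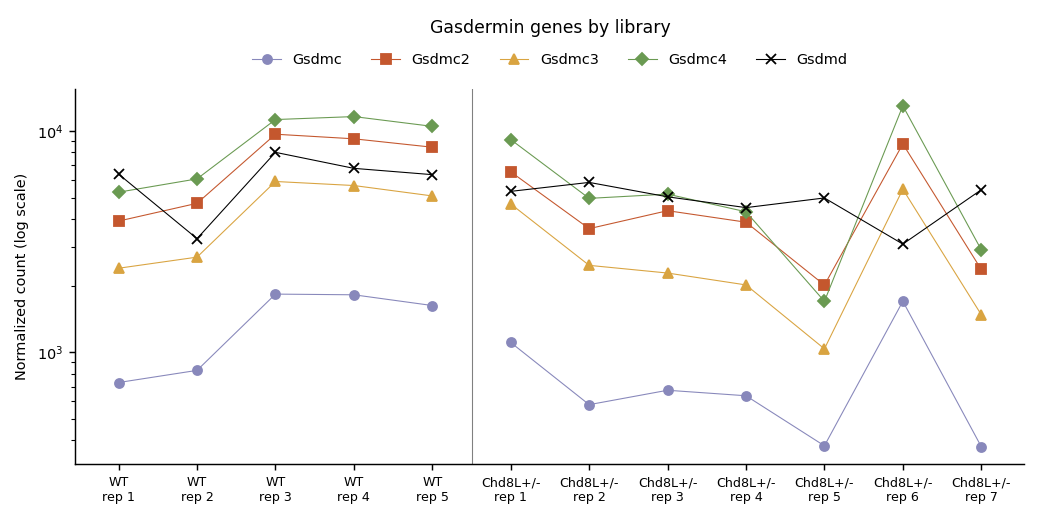
Normalized count on a log axis of Gsdmc, Gsdmc2, Gsdmc3, Gsdmc4 and Gsdmd in each WT and Chd8L+/- library. The 4 gasdermin C genes vary together across libraries, with Chd8L+/- replicate 6 at the level of WT replicates 3 to 5, whereas Gsdmd is lowest in that library.

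Beyond the 10 genes, 51 further genes of the pathway were listed by role, of which 42 were in the table and 38 passed the filter. None passed the adjusted threshold in limma or in edgeR on the recovered reads, and 1, Irf8, did in DESeq2. Of the 38 genes, 15 had a higher and 23 a lower mean log2 value in Chd8L+/- libraries, and 5 of the 38 had an unadjusted p of 0.05 or less, beside 24.3% of all genes. Their median log2 fold change was -0.050, beside 0.014 for all genes. Without WT replicate 2, 7 of these genes passed the adjusted threshold in limma: Irf8, Il1rap, Il1r1 and Dhx15, higher, and Irf2, Serpinb1a and Gsdma, lower. This is 7 of 38, beside 27.6% of all genes. DESeq2, run without the filter, called 1 of the 42 genes in the table, beside 5.69% of all 14244.

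Among the other sensors, Naip1, Nlrp1b and Nlrp9b passed the filter, with log2 fold changes of -0.028, -0.18 and -0.28 and adjusted p-values in limma from 0.581 to 0.947. Nlrp10 and Mefv had a mean under 10 normalized counts, and Nlrp3 was not analysed here. Among the other caspases, Casp4, which senses cytosolic lipopolysaccharide and also cuts gasdermin D, had 328 ± 72.1 in WT and 429 ± 162 normalized counts in Chd8L+/- libraries (SD; log2 fold change 0.32; limma, adjusted p = 0.464). Casp8, which joins cell death pathways to inflammasomes, had a log2 fold change of 0.095 (limma, adjusted p = 0.744). Gsdme, another gasdermin, had a log2 fold change of 0.36 (limma, adjusted p = 0.521).

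Il18, the interleukin-1 family cytokine that gut epithelial cells store, had 391 ± 149 normalized counts in WT and 510 ± 135 in Chd8L+/- libraries (SD; log2 fold change 0.41; limma, adjusted p = 0.338). Il1b, the cytokine typical of myeloid cells, was near absent in both, with 3.69 ± 3.59 and 6.83 ± 3.18 normalized counts. Il1rap, the shared co-receptor of the interleukin-1 family, had 48.3 ± 25.0 in WT and 71.2 ± 12.3 normalized counts in Chd8L+/- libraries, with a log2 fold change of 0.66 (limma, adjusted p = 0.161, and 0.00965 without WT replicate 2). Il1r1, the interleukin-1 receptor, was at 6.82 ± 8.70 and 24.2 ± 32.4 normalized counts, so its log2 fold change of 1.91 rests on few reads (limma, adjusted p = 0.177, and 0.0329 without WT replicate 2). Stromal cell markers, which include cells known to express Il1r1, summed to 49.8 to 378 in WT and 78.3 to 1621 in Chd8L+/- libraries, with Col1a2, Col3a1 and Pdgfra at 0 in some, and their part in these values was not tested.

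Of the regulators, the interferon regulatory factor gene Irf8 had the smallest unadjusted p. It had 1330 ± 145 normalized counts in WT and 2069 ± 528 in Chd8L+/- libraries (SD), all 7 above the WT median, with a log2 fold change of 0.61 ± 0.16 (SE; limma, adjusted p = 0.121, and 0.0122 without WT replicate 2; DESeq2, adjusted p = 0.0157). Irf2, known to drive transcription of Gsdmd, had 1801 ± 517 normalized counts in WT and 1238 ± 267 in Chd8L+/- libraries. Each of the 7 Chd8L+/- values was under the median of WT. The log2 fold change of Irf2 was -0.51 ± 0.20 (SE) (limma, adjusted p = 0.148, and 0.0136 without WT replicate 2). The part of Irf2 in the Gsdmd values was not tested. Serpinb1a, an inhibitor of neutrophil proteases that also restrains inflammatory caspases, was abundant, at 18751 ± 6067 in WT and 12078 ± 4363 normalized counts in Chd8L+/- libraries, again with all 7 below the WT median (log2 fold change -0.63; limma, adjusted p = 0.209, and 0.0205 without WT replicate 2). The other regulators, among them Nek7, Ninj1, Txnip, Ripk3 and Mlkl, had log2 fold changes between -0.33 and 0.42.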

How the data were processed

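Poly(A) libraries of 12 mice were sequenced by the authors as 75-base single-end reads and mapped to mm10 with Tophat2. The deposited signal is, per gene and library, the reads divided by a size factor of the library, as the DESeq2 pipeline of the authors gives it. The counting program, annotation and use of strand are not given in the sources used here. Reads were recovered for 100% of the values, within 0.000147 of a whole number, with 15691662 to 20761315 per library, so counting error is largest for Aim2. No pair of libraries agreed within sampling noise. Genotypes were compared without covariates by limma 3.58.1 in R 4.3.3, its empirical Bayes step with a mean trend, on the log2 of each value plus 1, after genes whose mean lay under 10 were set aside, and p-values were adjusted by Benjamini-Hochberg. Single genes and paralog sums had a two-sided exact permutation test of mean log2 values over all 792 ways to choose the WT libraries. Alternatives were pseudocounts of 0.5 and 5, other filters, quantile normalization, count tests of the recovered reads (edgeR 4.0.16, DESeq2 1.42.0), the replicate number or library letter as a block, and each library left out; the letter block without WT replicate 2 and the Naip5 to Naip6 ratio were added after seeing the data. The 10 genes, the pathway and marker lists and the named genes (Chd8, the 10 genes, genes of the lists, and the 3 genes most like each of the 10) were chosen with earlier results of these data known. Positions, exon lengths and shared stretches come from GENCODE M21 on GRCm38, and protein identities from translating its coding sequences. The fits were tested on simulated data with known differences. The spread between simulated libraries was capped and no library was made to stand apart, so this checks the code and not the calls on these data. Some genes of the pathway lists are counted but not reported here by name.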

Additional observations from a re-analysis of the deposited data

Results flagged for a closer look

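Among the 10 genes, the Naip and gasdermin C sums and the Naip5 to Naip6 ratio, 26 groups of libraries were searched for a library far from the rest of its genotype, and 2 were found, where chance gives about 1 in 20 groups, or 1.3. Both concern Gsdmd. Its log2(normalized count + 1) was 11.7 in WT replicate 2, with the nearest WT library at 12.6, and 11.6 in Chd8L+/- replicate 6, with the nearest library of that genotype at 12.1. The same libraries had the lowest enterocyte marker sums of their genotypes, 364442 and 299934, and the part of that in the Gsdmd values was not tested.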

How the results depend on the processing

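Of the 12808 genes, limma called 3. The number was 5 with edgeR, 811 with DESeq2, 451 with the library letter as a block, and 0 to 3534 with 1 library left out, where 3534 came without WT replicate 2 and no other library gave more than 8. With the letter block and without WT replicate 2, a setting chosen after seeing the data, it was 3316. Of the 10 genes, 0 were called under each setting that kept WT replicate 2. Without it 3 were called (range over left-out libraries 0 to 3), and 3 (Nlrp6, Pycard and Aim2) with the letter block as well. Of the pathway genes, 1 was called with DESeq2 and 1 with the letter block, Irf8 in each case, 0 to 7 with 1 library left out, 7 of them without WT replicate 2, and 10 with both changes. As a replicate block, the replicate number left 0 genes called in all and 0 of the 10, with 2327 genes and 2 of the 10 at an unadjusted p of 0.05 or less. Deviations of same-numbered libraries had correlations of 0.20, -0.34, -0.14, -0.29 and -0.37. These give no sign that the numbers pair the mice, and without a reference for paired mice they cannot exclude it.

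The sign of the log2 fold change turned for genes near 0, in limma and in the exact test alike. Nlrc4 ranged from -0.041, without WT replicate 2, to 0.17 with 1 library left out, and was -0.093 with the letter block and without WT replicate 2. Naip2 ranged from -0.030, without WT replicate 2, to 0.14, and was -0.0067 with the letter block and -0.074 with both. Naip5 ranged from -0.28, without WT replicate 2, to 0.020, without Chd8L+/- replicate 6, and was 0.062 after quantile normalization. The summed NAIP reads ranged from -0.073, without WT replicate 2, to 0.18, without Chd8L+/- replicate 6. The sum of Gsdmc, Gsdmc2, Gsdmc3 and Gsdmc4 ranged from -0.99 to -0.57, and that of Gsdmc2, Gsdmc3 and Gsdmc4 from -0.98 to -0.56, with an exact permutation p of 0.0368 for each at the lower end, without Chd8L+/- replicate 6. The exact permutation p of Pycard ranged from 0.00909 to 0.109. The causes were not tested. Depth limits Aim2, Il1r1 and Il1b most.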

Other observations

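The genes whose library-to-library pattern was most like that of a single member, by Pearson's r over the 12 libraries after genotype means were removed, differed from member to member. For Nlrp6 they were Add3, Tut1 and Srp72, with r of 0.97, 0.96 and 0.95. For Pycard they were Mrps6 and Snrpd1, with r of 0.99 and 0.98, beside LOC102635048 with 0.98. For Gsdmd they were Ccng2, Optn and Exoc5, with r of 0.98, 0.98 and 0.97. For Nlrc4 they were Pde4dip, Selenoi and Osbpl11 (0.96, 0.95 and 0.95), and for Casp1 Mysm1 led with 0.91. These are the highest of 12807 values for each gene and are a description of shared libraries.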
